A study of Canis lupus familiaris with 6 samples.

Results

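The MYC, MAX and MXD network is a family of transcription factors that share a basic helix-loop-helix leucine zipper and bind E-box DNA as pairs. Its 10 genes, MYC, MYCN, MYCL, MAX, MXD1, MXD3, MXD4, MXI1, MNT and MGA, were taken as every probe set whose single gene symbol in the array annotation was one of these names. This gave 17 of 42924 probe sets, and 10 of the 15115 genes named on the array. MYC, MXD1, MXD4, MYCL and MNT had 1 probe set each, MYCN, MXD3 and MGA had 2, and MAX and MXI1 had 3.

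MAX is the shared partner. MYC, MYCN and MYCL pair with MAX to activate genes of ribosome assembly, nucleotide and polyamine synthesis and the cell cycle, whereas MXD1, MXI1, MXD3, MXD4 and MNT pair with it to repress them through the SIN3 corepressor. MGA also pairs with MAX, as part of a Polycomb complex named PRC1.6. In epithelia MYC is typically linked to growth and MXD proteins to cells leaving the cycle.

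The cells were MDCKII, an established dog kidney epithelial line that forms polarized sheets, untreated other than by their culture substrate. The 2D group (3 arrays) grew as a confluent monolayer in plastic dishes, and the 3D group (3 arrays) was plated on a thin Matrigel layer (100 µl per 60 mm dish) in medium with 2% Matrigel, where the cells form cysts. Matrigel is a basement membrane extract. Both groups were harvested 36 h after plating for total RNA, and the design asked which genes are raised in cysts. The labels call the replicates biological without naming separate cultures, so p-values measure the spread between these samples.

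Each Affymetrix array gave 1 log2 value per probe set. The 4 arrays of replicates 2 and 3 had medians of 7.06 to 7.08, and the 2 arrays of replicate 1 had medians of 5.42 and 5.26 and values below 0, so these lie on another scale. Pearson's r over all probe sets, which are not independent replicates, ran from 0.861 to 0.872 between arrays of different scales and from 0.982 to 0.997 among replicates 2 and 3, and was 0.888 between the 2D and 3D arrays of replicate 1. Replicates 2 and 3 (n = 2 arrays per group) were therefore tested, and the pair of replicate 1 arrays stands beside them untested. The small number of arrays limits the precision. Kidney epithelial markers (10 genes) had median percentiles of 87.7 to 90.6 among all probe sets of their array. The medians were 27.2 to 34.1 for fibroblast (7 genes), 36.3 to 51.3 for endothelial (5 genes) and 34.6 to 52.7 for leukocyte markers (4 genes), and 0 of the 26 marker genes passed the limma test, with 3 at an unadjusted p under 0.05. The gap between the 3' and 5' control probe sets of actin and GAPDH (4 pairs) was wider on both tested 3D arrays than on both tested 2D arrays for 2 pairs, and the bacterial poly-A spike-in controls averaged 9.83 on 3D replicate 2 against 8.81 to 8.98 on the other 3 arrays of that scale. The part of these in the results below was not tested.

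MYC was the 1 member of the network to pass the test, and it was less than 0.5 times as high in cysts. On its 1 probe set the log2 signal was 10.97 on 2D replicate 2 and 11.11 on 2D replicate 3, and 9.77 and 9.97 on the 3D arrays of the same numbers. Both 3D arrays lay at least 1 log2 unit below both 2D arrays, and the gap within each pair of replicates was at most 0.20. The mean log2 signal was 11.04 ± 0.10 in 2D and 9.87 ± 0.14 in 3D (SD, n = 2 arrays each), a 2.25-fold lower level in 3D. The log2 difference was -1.17 (SE 0.119, 95% interval -1.46 to -0.88, limma adjusted p = 0.0104). In replicate 1 MYC was 9.83 in 2D and 7.02 in 3D, a 7.01-fold lower level in the same direction. Over all probe sets the sign was the same on both scales for 54.4%, and 19.7% were at least 2-fold lower in replicate 1. In bulk RNA, fewer cells with MYC transcript and less transcript per cell cannot be told apart.

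Of all probe sets, 6.61% passed this test, 2.96% lower and 3.65% higher in 3D, and of the 17 in the network 1 was lower and 0 were higher. Among the 467 genes called lower, MYC had the 48th lowest difference. At an unadjusted p under 0.05 there were 5 network probe sets, against 23.5% of all probe sets. The MYC direction held in every alternative run, but its call was lost when any 1 array was left out, with limma adjusted p = 0.0921 without 3D replicate 3, 0.18 without 3D replicate 2, 0.415 without 2D replicate 2 and 0.421 without 2D replicate 3. With 3 arrays, 0 of all probe sets passed, and 4683 to 10892 had an unadjusted p under 0.05. With all 6 arrays in 1 fit the MYC call was lost too (limma adjusted p = 0.426 to 1).

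**Figure D1:**
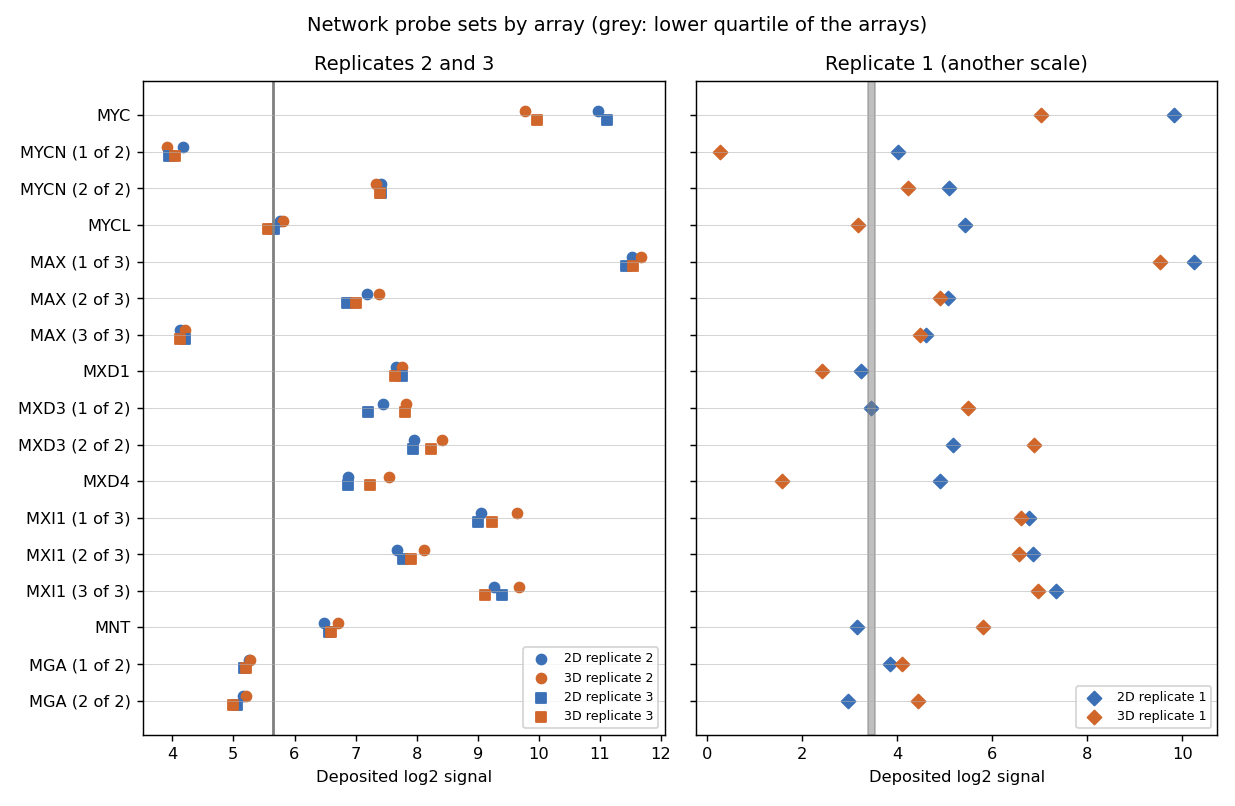
Deposited log2 signal (x axis) of the 17 network probe sets (y axis) on each array, with replicates 2 and 3 at left, replicate 1 on its own scale at right, 2D in blue and 3D in orange. The grey bands mark the arrays' lower quartiles. MYC in 3D sits at 9.77 and 9.97, apart from 10.97 and 11.11 in 2D, while 8 of the 17 probe sets overlap.

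The other MYC genes showed no comparable difference on replicates 2 and 3. MYCN, the paralog best known from neural and embryonic tissue, read 7.41 on both 2D arrays and 7.34 and 7.40 in 3D on its brighter probe set. The difference was -0.04 (95% interval -0.28 to 0.20, limma adjusted p = 0.869). That interval excludes a fall of the size seen for MYC in the signal of this probe set only. Whether signal at this level reports MYCN transcript was not tested. Its second probe set was dim, at 3.91 to 4.18 on the 4 arrays, below the lower quartiles of 5.64 to 5.67, and overlapped between groups. MYCL, a paralog described in lung epithelium and dendritic cells, was 5.76 and 5.67 in 2D and 5.81 and 5.57 in 3D, close to the lower quartile, and the groups overlapped (difference -0.025, 95% interval -0.32 to 0.27). In replicate 1 the 2 MYCN probe sets differed by -0.86 and -3.76 and MYCL by -2.25. The 3D values behind the larger MYCN difference (0.26) and the MYCL difference (3.17) were under 3.38, the lower quartile there, which leaves both sizes uncertain.

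MAX, the obligate partner, did not pass on any of its 3 probe sets. The brightest read 11.53 and 11.42 in 2D and 11.67 and 11.54 in 3D, with both 3D arrays just above both 2D arrays. That difference was 0.13 (95% interval -0.13 to 0.39, limma adjusted p = 0.549). The second read 7.19 and 6.86 in 2D and 7.39 and 7.01 in 3D and overlapped between groups, with replicate 2 above replicate 3 in both. The third stayed at 4.12 to 4.20, in the dim range. In replicate 1 the 3 differences were -0.70, -0.17 and -0.13. The fits of all 6 arrays turned the sign for the brightest probe set, with differences of -0.15 to -0.10.

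Most probe sets of the MXD repressors read higher in 3D on replicates 2 and 3, without passing. On those arrays, 5 of their 7 probe sets had both 3D values above both 2D values, against 25.1% of all probe sets. These 7 belong to 4 genes and are not independent. By the brightest probe set of each gene, MXD3 and MXD4 were above without overlap, against 25.8% of all genes, and MXD1 and MXI1 overlapped. Of the 7, 0 passed, with limma adjusted p from 0.0681 to 0.975. An unadjusted p under 0.05 was found for 4 of them, against 23.5% of all probe sets. In replicate 1 the MXD3 probe sets were higher in 3D, and those of MXD1, MXD4 and MXI1 were lower.

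MXD3, the member of the family expressed in dividing cells around S phase, gave the steadiest difference of these. Its first probe set read 7.45 and 7.21 in 2D and 7.83 and 7.81 in 3D. The second, brighter probe set read 7.95 and 7.94 in 2D and 8.42 and 8.24 in 3D. On both, the groups did not overlap. The differences were 0.49 (95% interval 0.20 to 0.78, limma adjusted p = 0.0681) and 0.385 (95% interval 0.12 to 0.65, limma adjusted p = 0.0981), or 1.40-fold and 1.31-fold. A separate fit used the mean of each gene's probe sets and adjusted over genes, not over all probe sets. There the MXD3 difference was 0.44 (limma adjusted p = 0.0521). In replicate 1 MXD3 was higher in 3D as well, by 2.04 (3.45 in 2D and 5.49 in 3D) and by 1.71 (5.17 and 6.88). The 2D value of 3.45 was dim, under the lower quartile of 3.52 there.

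MXD4, a repressor found in many differentiated tissues, was 6.88 and 6.87 in 2D and 7.54 and 7.24 in 3D, again without overlap. The Entrez identifier of its probe set was not found in the gene table used for names, so the name rests on the annotation's symbol. The difference was 0.515 (95% interval 0.20 to 0.83, limma adjusted p = 0.0739), or 1.43-fold. Replicate 1 went the other way, with 4.89 in 2D and 1.58 in 3D, a difference of -3.31. The 3D value lay below the lower quartile of its array, and the difference between the scales was not tested. The fits of all 6 arrays gave -0.76 to -0.45 for MXD4.

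MXI1, also known as MXD2, a MYC antagonist that responds to low oxygen, depended on the probe set. Its first probe set read 9.05 and 9.01 in 2D and 9.64 and 9.23 in 3D, a difference of 0.405 (95% interval 0.03 to 0.78, limma adjusted p = 0.181). The second read 7.68 and 7.78 in 2D and 8.12 and 7.91 in 3D, a difference of 0.285 (limma adjusted p = 0.215). The third, the brightest, read 9.26 and 9.39 in 2D and 9.67 and 9.12 in 3D and overlapped (0.07, limma adjusted p = 0.882). On all 3 probe sets 3D replicate 2 was above 3D replicate 3, by 0.21 to 0.55, and this pair was spread more widely than the 2D pair (0.04 to 0.13). As the mean of its probe sets, in the separate fit adjusted over genes, the MXI1 difference was 0.253 (limma adjusted p = 0.341). Without 3D replicate 2, the difference of the brightest probe set was -0.205. In replicate 1 the 3 differences were -0.16, -0.29 and -0.37.

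MXD1, the founding member, induced when many cell types differentiate, was 7.66 and 7.76 in 2D and 7.76 and 7.64 in 3D. The groups overlapped, with a difference of -0.01 (95% interval -0.27 to 0.25, limma adjusted p = 0.975). In replicate 1 it was 3.23 in 2D and 2.41 in 3D, both below the lower quartiles of their arrays.

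The large members MNT and MGA also did not pass. MNT, a broadly expressed antagonist of MYC, read 6.49 and 6.56 in 2D and 6.71 and 6.59 in 3D, with a difference of 0.125 (95% interval -0.13 to 0.38, limma adjusted p = 0.551). Both 3D arrays were above both 2D arrays, by as little as 0.03. In replicate 1 MNT was 3.15 in 2D, below the lower quartile, and 5.80 in 3D, a difference of 2.65. MGA read 5.18 to 5.27 on 1 probe set and 4.99 to 5.20 on the other across the 4 arrays, all below the lower quartiles. Its differences were 0.02 and -0.01 (limma adjusted p = 0.944 and 0.977), and 0.24 and 1.48 in replicate 1.

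Over the 17 probe sets the median difference was 0.07, against -0.005 for all probe sets, with 7 above without overlap (25.1% of all probe sets), 2 below (26.7%) and 8 overlapping. In replicate 1 the median was -0.29, against -0.14 for all probe sets, with 12 of the 17 below 0 (55.9% of all probe sets). There 4 network probe sets were at least 2-fold higher in 3D, against 14.3% of all probe sets. As many, 4, were at least 2-fold lower, against 19.7%. The sign of the difference was the same on both scales for 10 of the 17, among them MYC, MYCN, MYCL, MXD3 and MNT, and opposite for 7, among them MXD4 and MXI1; over all probe sets it was the same for 54.4%.

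**Figure D2:**
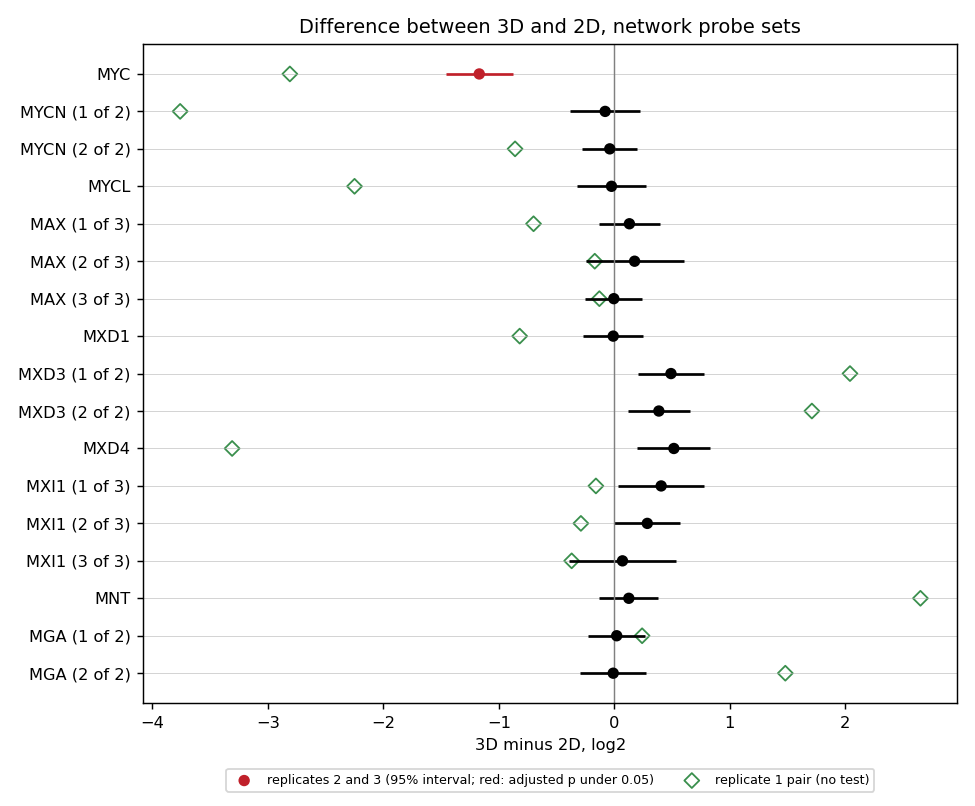
Difference in log2 signal, 3D minus 2D (x axis), of the 17 network probe sets. Filled points with bars are the limma estimate and its 95% interval on replicates 2 and 3, red where the adjusted p is under 0.05, and open diamonds are the untested replicate 1 pair. MYC at -1.17 is the 1 red point, and the diamonds of MXD3 and MXD4 lie on opposite sides of 0.

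Genes known to be induced by MYC were lower in cysts on balance. The list held 35 such genes, of which 29 were measured. It was chosen with earlier results of these data known, so the shares below describe it and are no independent test. By representative probe set 7.29% of all genes passed the test in either direction. On the list, 29 of the 29 had a difference below 0 on replicates 2 and 3, against 51.1% of all genes. Both 3D arrays were below both 2D arrays for 24 of them (82.8%, against 27.4% of all genes), 6 fell at the test's threshold (20.7%, against 3.09%) and 0 rose, leaving 23 that did not pass. The median difference was -0.37, against -0.01 for all genes. Of the 29, 26 were among the 3780 genes at or above the 75th percentile of mean level, and over those 3780 genes the median was -0.01, 51.2% lay below 0, 34.2% were below without overlap and 6.40% were called lower.

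DKC1, which encodes dyskerin, the pseudouridine synthase of small nucleolar and telomerase RNA, read 10.55 and 10.65 in 2D and 9.75 and 9.58 in 3D. It fell by 0.935 (SE 0.112, limma adjusted p = 0.0135), and all 3 of its probe sets passed. NOP56, a core protein of box C/D small nucleolar particles, read 11.09 and 11.12 in 2D and 10.39 and 10.51 in 3D. It fell by 0.655 (SE 0.103, limma adjusted p = 0.0241). The other of its 2 probe sets did not pass. ODC1, the ornithine decarboxylase that begins polyamine synthesis and a classic MYC target, read 12.95 and 13.07 in 2D and 12.42 and 12.26 in 3D. It fell by 0.67 (SE 0.112, limma adjusted p = 0.0283). WDR43, a small-subunit processome factor, fell by 0.67 as well (limma adjusted p = 0.0286), on all 3 of its probe sets. SRM, spermidine synthase, the next enzyme of the polyamine route, had the lowest difference of the list and was picked out after its values were seen. It was 10.41 and 10.27 in 2D and 9.53 and 8.96 in 3D, 2.14-fold lower (limma adjusted p = 0.0325).

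The sixth gene to fall, NME1, a nucleoside diphosphate kinase, was also named after its values were seen (-0.605, limma adjusted p = 0.0344) and passed on 1 of its 2 probe sets. Of the 23 genes that did not pass, 6 had another probe set called lower, and none had one called higher. NME1 differed by 0.30 in replicate 1, whereas DKC1, NOP56, ODC1, WDR43 and SRM differed by -0.51, -0.79, -0.94, -0.37 and -1.50 there. In replicate 1 the list's median was -0.52, against -0.11 for all genes and 0.06 for the genes at or above the 75th percentile of mean level. The replicate 1 difference lay below 0 for 20 of the 29 genes (69.0%, against 54.6% of all genes). There 5 were at least 2-fold lower, against 17.3% of all genes, and 0 were at least 2-fold higher, against 12.4%. Leaving out any 1 of the 4 arrays took the count of limma calls to 0, with 8 to 18 genes at an unadjusted p under 0.05 and 27 to 29 genes below 0. It was also 0 with all 6 arrays, with 0 to 10 at an unadjusted p under 0.05.

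**Figure D3:**
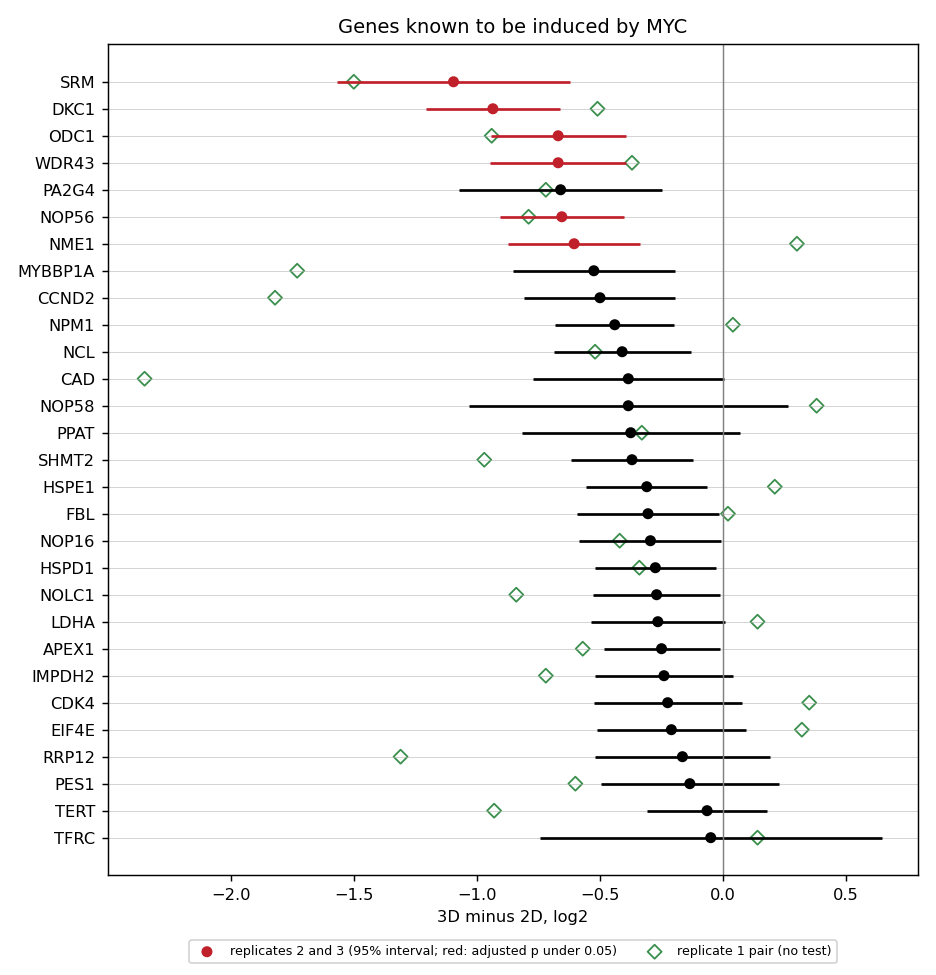
Difference in log2 signal, 3D minus 2D (x axis), for the 29 measured genes known to be induced by MYC, 1 probe set each, ordered by their difference. Filled points with bars are the limma estimate and 95% interval on replicates 2 and 3, red where the adjusted p is under 0.05, and open diamonds are the replicate 1 pair. All 29 filled points lie left of 0, and 20 diamonds do.

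Genes known to be repressed by MYC were called in both directions, and more of them read lower than higher in 3D. Of 14 in the list 10 were measured, 2 rose (background 4.20% of all genes), 1 fell (3.09%) and 7 did not pass, with a median of -0.095. TXNIP, the thioredoxin-binding protein that limits glucose uptake and is also a target of MondoA with its partner MLX, read 9.13 and 8.92 in 2D and 13.50 and 12.48 in 3D. It rose by 3.965 (SE 0.314, limma adjusted p = 0.0064) and differed by 3.23 in replicate 1. FTH1, the ferritin heavy chain, rose by 0.935 (limma adjusted p = 0.0435), with 0.31 in replicate 1. THBS1, the matrix glycoprotein thrombospondin, fell by 0.655 (limma adjusted p = 0.0257; passed on 1 of 3 probe sets), with -2.27 in replicate 1.

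None of the cofactor genes passed by representative probe set, where over all genes 7.29% passed and 25.2% had an unadjusted p under 0.05. Of 15 measured MYC coactivators and partners 0 passed by limma, 3 had an unadjusted p under 0.05, and the median was 0. WDR5, which helps MYC to chromatin, had the smallest p (-0.64, limma adjusted p = 0.0609, replicate 1 -1.21). Of 15 genes of the SIN3 corepressor 0 passed, 2 had an unadjusted p under 0.05 and the median was -0.08; ING1 had the smallest p (-0.295, limma adjusted p = 0.16), and 1 of its 2 probe sets, not its representative, was called lower. Of 11 genes of the PRC1.6 complex around MGA 0 passed, 4 had an unadjusted p under 0.05 and the median was -0.04. E2F6, a DNA-binding subunit of the complex, led them (-0.385, limma adjusted p = 0.077, replicate 1 -0.32).

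Among 22 genes acting on MYC protein turnover 1 rose and 1 fell, against 4.20% and 3.09% of all genes, with a median of -0.0525. An unadjusted p under 0.05 was found for 8 of the 22, against 25.2% of all genes. USP28, a deubiquitinase that spares MYC from degradation, read 7.97 and 7.87 in 2D and 8.55 and 8.41 in 3D, and rose by 0.56 (limma adjusted p = 0.0396). CIP2A, which shields MYC from a phosphatase, read 9.20 and 9.07 in 2D and 8.30 and 8.56 in 3D, and fell by 0.705 (limma adjusted p = 0.0337). Each passed on 1 of its 2 probe sets, and PPP2CA, which did not pass, had 1 of 2 called lower. In replicate 1 they differed by 0.09 and 0.24, and averaged over each gene's probe sets 0 of the 22 passed, with 6 at an unadjusted p under 0.05. Of 11 other E-box factors of the same structural class, TFE3, a regulator of lysosomal genes, rose by 0.665 on 1 of 2 probe sets (limma adjusted p = 0.0478) and 10 did not pass, although MLXIPL had 1 of 3 probe sets called higher. The median was 0.155, and the replicate 1 difference of TFE3 was 0. Median centring ended the TFE3 call, as did trend and robust priors.

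**Figure D4:**
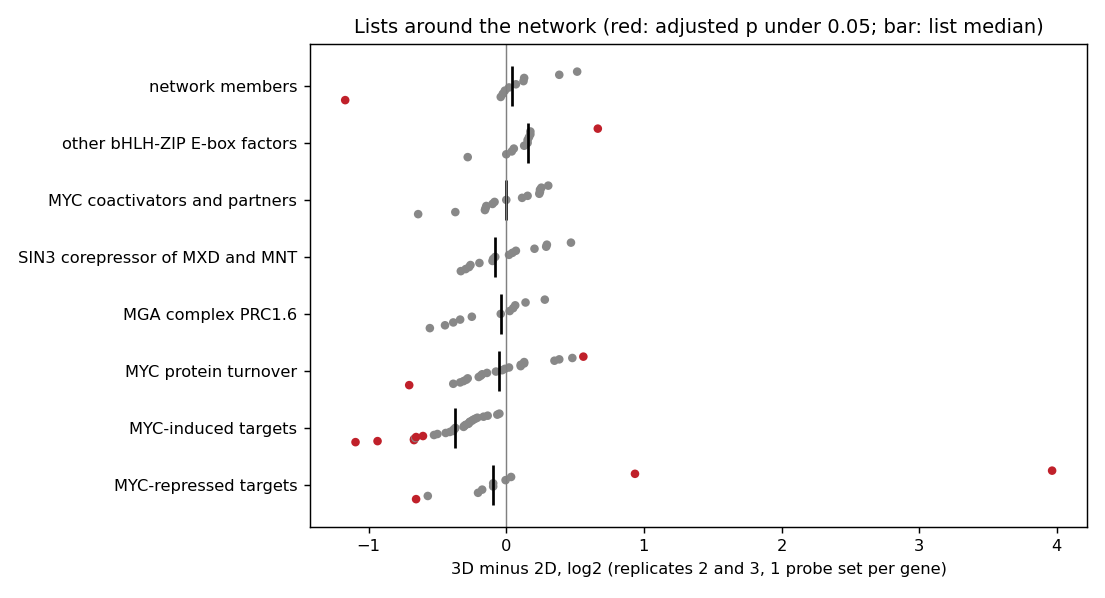
Difference in log2 signal, 3D minus 2D (x axis), on replicates 2 and 3 for each measured gene of the network and of 7 lists around it (y axis), 1 probe set per gene. Red points have a limma adjusted p under 0.05 and black bars are list medians. The MYC-induced list has its median at -0.37 with 6 red points, and the other lists have medians between -0.095 and 0.155.

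The profile of MYC over the 6 arrays was also set against the other named genes, leaving out the 573 whose symbol begins with LOC. Each value was centred on the mean of the arrays of its own scale, and likeness was the root mean square distance in log2 units. The nearest of 14541 genes was KLF6, a zinc finger transcription factor induced early by growth stimuli, at a distance of 0.13, against a median distance of 0.92. KLF6 read 11.15 and 11.38 in 2D and 9.99 and 10.21 in 3D, and 9.19 and 6.82 in the replicate 1 pair. RAP2A, a small GTPase, followed at 0.164, then COL5A1, a collagen chain, at 0.212, PTPN14, a phosphatase that binds YAP, at 0.214, and LATS2, the Hippo kinase, at 0.215. All 5 were lower in 3D on replicates 2 and 3, by -1.39 for RAP2A to -0.68 for COL5A1, and by -2.61 to -2.25 in replicate 1. They were chosen by likeness to MYC over these same arrays, so their lower level in 3D follows from the choice. Within the network MYCL was nearest, at 0.515, and ranked 655th, while MNT was farthest, at 1.67. MYCL did not follow MYC on replicates 2 and 3 (-0.025 against -1.17). Its replicate 1 difference (-2.25) and that of MNT (2.65) each rest on a value below the lower quartile. All these distances describe 6 arrays and carry no test.

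**Figure D5:**
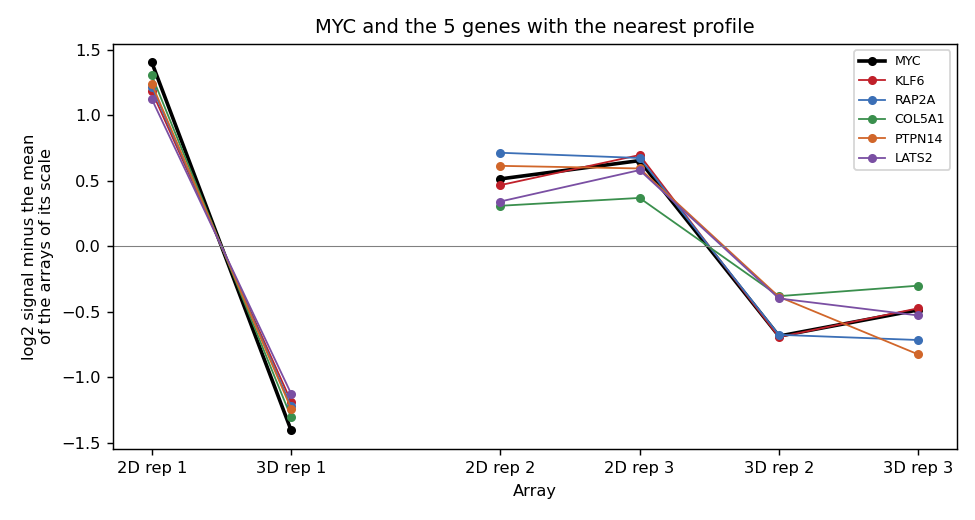
Log2 signal minus the mean of the arrays of the same scale (y axis) on each array (x axis) for MYC, in black, and the 5 genes with the smallest distance to it. Lines join arrays of 1 scale. KLF6, at a distance of 0.13, follows MYC most closely. All 6 genes are lower on each 3D array than on each 2D array of the same scale, which follows from the choice by likeness to MYC.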

How the data were processed

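Affymetrix canine arrays (1 colour) measured total RNA, from which biotin-labelled cRNA was made from 4 µg, per the labels' protocols. The deposited table holds log2 values, made with RMA and limma per the submitters' processing notes; versions, probe set definition and how the replicate 1 columns came to another scale have no statement in the labels or notes used here. Of 43035 probe sets 111 controls were left out and 64 reporter-gene sets were kept. The annotation gave 1 symbol for 29254, several for 439 and none for 13231. Entrez identifiers of 27680 probe sets, and of 16 of the 17 here (not MXD4's), were found in the gene table of UU_Cfam_GSD_1.0, used for names. The array build is not named, so no positions or sequences are given.

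Differences (3D minus 2D) were fitted with lmFit and eBayes of limma 3.58.1 (R 4.3.3) on 4 arrays without a block, two-sided, with Benjamini-Hochberg adjustment over 42924 probe sets and a threshold of 0.05; the script was tested on simulated data. No filter on level was used. A gene's representative probe set, used for lists, had the highest mean over the 6 arrays. Alternatives left out arrays, blocked, rescaled, dropped dim probe sets, changed priors or added replicate 1. Members and lists were chosen with earlier results of these data known; the named genes were all members, up to 4 passing genes per list by adjusted p or else the smallest p, and the 5 profiles nearest to MYC (symbols beginning with LOC left out). SRM, NME1, MLXIPL and PPP2CA were named after their values were seen. The genes at or above the 75th percentile of mean level, used as a second background, were chosen after seeing the data. Joins and plots used pandas 2.3.3, numpy 2.4.6 and matplotlib 3.10.9 under Python 3.11.15.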

Additional observations from a re-analysis of the deposited data

How the results depend on the processing

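The MYC difference kept its direction in all 15 alternatives, and its call in 5: median centring, renewed quantile normalization, no dim probe sets, trend and robust priors, and the mean of probe sets. As MYC has 1 probe set, the mean of probe sets left its values unchanged and altered only the other features in the fit. Without 1 array it was -1.27 to -1.07, and with all 6 arrays -1.72 as deposited with or without the replicate block, -1.69 quantile normalized with or without the block, and -1.67 median centred, with the call lost in each (limma adjusted p = 0.426 to 1). With the replicate block on 4 arrays it stayed at -1.17 (limma adjusted p = 0.153), and the count over all probe sets went from 2837 to 0, with 8325 at an unadjusted p under 0.05. Same-numbered arrays did not deviate together (correlation 0.00127), so the numbers were not taken to pair the samples. The counts of called probe sets, network members and genes of the MYC-induced, MYC-repressed, turnover and other E-box lists were 0 without any 1 array, with the block, and with all 6 arrays in each form, except for 2 probe sets over the whole table when quantile normalized or median centred without a block; at an unadjusted p under 0.05 these fits gave 105 to 10892 probe sets and 0 to 7 in the network. The turnover count was 0 by the mean of probe sets, and the other E-box count 0 with median centring and with trend and robust priors. The coactivator count became 1 when quantile normalized again and the SIN3 count 1 by the mean of probe sets. Signs turned for members that had not passed. With all 6 arrays MAX was -0.15 as deposited with or without the block, -0.14 quantile normalized with or without it and -0.10 median centred; MXD4 was -0.76, -0.45 and -0.72, and MXI1 -0.077, -0.045 and -0.033 in the same order. Without 1 array MYCL ranged from -0.145 to 0.095, MXD1 from -0.07 to 0.05, MXI1 from -0.205 to 0.345 and MGA from -0.02 to 0.06. The cause of the lost calls was not tested. Probe sets below the lower quartile limit what can be read for MGA and the dimmer MYCN and MAX probe sets. How far signals above it report transcript was not tested. On replicates 2 and 3 the endothelial marker CDH5 read 8.34 to 8.47 and the fibroblast marker COL1A1 6.93 to 7.25. MXD1, MXD4, MNT and the brighter MYCN probe set read below CDH5. Above the median on all 4 arrays were 1 of 5 endothelial, 0 of 7 fibroblast and 0 of 4 leukocyte markers.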
